A study of Mus musculus with 69 samples.

Results

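Ring1B is the ubiquitin ligase at the core of Polycomb repressive complex 1 (PRC1), and it was mapped by CUT&RUN, a method that cuts and sequences DNA beside an antibody-bound protein, in the mouse embryonic stem (ES) cell line CJ7. The deposited Ring1B peak set merges ES cells, embryoid bodies (aggregates of differentiating cells) at day 4 and embryoid bodies at day 8, with 1 Ring1B library at each stage, all wild type. It holds 782 peaks, of which 544 share at least 1 base with a peak of the merged wild-type H3K27me3 set and 238 share none. The 238 are described here. They were chosen by that absence, so the distance to H3K27me3 is a property of the choice and is given only as a description.

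H3K27me3 is the repressive histone mark written by Polycomb repressive complex 2 (PRC2), whose catalytic subunit is EZH2 and whose core includes SUZ12. Canonical PRC1 contains a CBX subunit that binds H3K27me3. Variant PRC1 complexes lack that reader and reach DNA by other means. In the complex PRC1.6, the partners MGA with MAX and E2F6 with DP1 bind E-box and E2F-type motifs, and germline genes are its best known targets in ES cells.

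RNA was measured in 41 libraries of the same cell line. Wild-type and EZH2-mutant cultures had 3 libraries each as ES cells, at day 4 and at day 8. Wild-type cultures treated with the EZH2 inhibitor GSK343 at 4 µM, or with its solvent DMSO, had 2 libraries each at the same stages. Treatment started 3 days before differentiation and went on to collection. In replated cultures, embryoid bodies were returned to ES cell medium for 5 days. Their names give the treatment before and then after replating: DMSO_DMSO, DMSO_GSK343 and GSK343_DMSO had 3 libraries each and GSK343_GSK343 had 2, and the third library of that group is not analysed here. The ES cells were grown on feeder cells. The sources used here do not give the kind of EZH2 mutation, the number of clones or whether libraries came from separate cultures, so p-values measure only the spread between these libraries.

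Promoters at the 238 peaks carried the E-box CACGTG, the sequence read by MYC, MAX, MGA and the circadian factors CLOCK and BMAL1, more often than promoters in general. The motif stood in 50 of the 249 annotated starts within 1 kb of a member peak (20.1%), in 10.2% of the 658 starts at Ring1B peaks with H3K27me3 and in 7.15% of all 32817 starts. Each promoter was the 300 bases from 250 before to 50 after a RefSeq start (GRCm38.p6, the sequence of mm10), searched on both strands. The next lines print the 250 bases before the start, 5′ to 3′ on the gene's strand, for 7 genes chosen after their motifs were seen: 3 clock or MAX-network genes (Ciart, Per1 and Mnt), 2 lysosomal genes (Mcoln1 and Cln3) and 2 meiotic genes (Stag3 and Hsf2bp). Capitals mark CACGTG, and in Mcoln1 and Hsf2bp also GCGGGAA, an E2F-type motif that reads TTCCCGC on the printed strand. The windows are chr3:95882229-95882478 for Ciart, chr11:69098699-69098948 for Per1, chr11:74830674-74830923 for Mnt, chr8:3500269-3500518 for Mcoln1, chr7:126583237-126583486 for Cln3, chr5:138280259-138280508 for Stag3 and chr17:32034509-32034758 for Hsf2bp. Ciart, Cln3 and Hsf2bp lie on the minus strand.
Ciart: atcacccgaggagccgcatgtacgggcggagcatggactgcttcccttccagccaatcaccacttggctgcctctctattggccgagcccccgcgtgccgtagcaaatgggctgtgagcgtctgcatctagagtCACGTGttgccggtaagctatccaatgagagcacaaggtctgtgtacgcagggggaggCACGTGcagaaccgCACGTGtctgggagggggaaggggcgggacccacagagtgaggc
Per1: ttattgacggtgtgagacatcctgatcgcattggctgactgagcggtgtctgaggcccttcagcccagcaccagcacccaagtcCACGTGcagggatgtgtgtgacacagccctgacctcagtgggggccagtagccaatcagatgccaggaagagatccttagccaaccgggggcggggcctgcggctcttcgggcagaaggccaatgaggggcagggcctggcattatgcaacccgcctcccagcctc
Mnt: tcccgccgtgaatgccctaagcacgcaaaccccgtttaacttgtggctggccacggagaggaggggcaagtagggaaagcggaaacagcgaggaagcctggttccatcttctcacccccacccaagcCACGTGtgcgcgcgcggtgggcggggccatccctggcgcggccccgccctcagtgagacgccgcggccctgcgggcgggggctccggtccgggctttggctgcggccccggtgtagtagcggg
Mcoln1: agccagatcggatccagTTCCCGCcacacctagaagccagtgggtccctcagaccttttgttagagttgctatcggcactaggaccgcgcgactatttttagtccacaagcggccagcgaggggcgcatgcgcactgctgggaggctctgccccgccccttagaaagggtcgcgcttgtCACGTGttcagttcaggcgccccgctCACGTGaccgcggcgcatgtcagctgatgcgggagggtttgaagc
Cln3: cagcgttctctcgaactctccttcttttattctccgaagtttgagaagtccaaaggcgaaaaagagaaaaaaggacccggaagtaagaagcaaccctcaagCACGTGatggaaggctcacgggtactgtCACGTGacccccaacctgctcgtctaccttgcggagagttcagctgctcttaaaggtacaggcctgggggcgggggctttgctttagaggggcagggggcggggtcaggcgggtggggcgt
Stag3: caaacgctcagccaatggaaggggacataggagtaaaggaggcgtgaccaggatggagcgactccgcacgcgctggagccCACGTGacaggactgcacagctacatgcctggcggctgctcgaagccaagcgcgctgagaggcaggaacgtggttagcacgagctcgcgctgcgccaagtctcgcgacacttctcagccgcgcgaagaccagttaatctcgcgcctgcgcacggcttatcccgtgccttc
Hsf2bp: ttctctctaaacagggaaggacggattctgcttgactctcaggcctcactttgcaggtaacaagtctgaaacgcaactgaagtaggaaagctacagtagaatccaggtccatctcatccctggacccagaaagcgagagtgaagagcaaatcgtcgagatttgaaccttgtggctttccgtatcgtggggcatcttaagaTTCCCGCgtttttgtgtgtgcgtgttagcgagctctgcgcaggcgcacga
Ciart, a repressor of the clock, held 3 copies of CACGTG. Mcoln1, which encodes a lysosomal calcium channel, and Cln3, a lysosomal membrane protein, held 2 each. Per1, a core clock repressor, Mnt, a MAX-binding repressor, and Stag3, a subunit of meiotic cohesin, held 1 each. Hsf2bp, a factor of meiotic recombination, held the E2F-type motif and no CACGTG. Stag3 also held 1 E2F-type motif in its 300-base window, which does not lie within the printed 250 bases. Nr1d1, the clock gene at the widest member, also has no CACGTG in its window. Of the 20 widest members with a start, 3 had CACGTG at a start (15.0%), and of the other 155, 41 did (26.5%).

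The motif shares were also taken among CpG-rich starts. Starts at member peaks had a median observed over expected CpG ratio of 0.817, against 0.722 at Ring1B peaks with H3K27me3 and 0.383 at all starts, and a median GC content of 61.0%, 61.7% and 52.7%. Among starts with a ratio above 0.6, CACGTG was found in 18.6% of the 204 at member peaks, 12.4% of the 450 at Ring1B peaks with H3K27me3 and 11.2% of all 11734. GCGGGAA was found in 11.6% of starts at member peaks, 5.32% at Ring1B peaks with H3K27me3 and 4.6% of all starts. With the ratio above 0.6 those shares were 12.7%, 5.78% and 10.01%, so the members' share then lay closer to that of CpG-rich starts in general, while its distance from Ring1B peaks with H3K27me3 was about the same as before. Of the 175 members with a start within 1 kb, 44 had CACGTG at 1 or more of their starts. The shares are descriptions of printed letters, and binding of any of these factors was not measured.

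The member peaks were narrow. Their width had a median of 1946 bases, a middle range from quartile to quartile of 1654 to 2379 bases and a largest value of 8288 bases, against a median of 6361 bases and a largest value of 170441 bases for the 544 Ring1B peaks with H3K27me3. Only 5 members (2.10%) were wider than 5000 bases, compared with 309 (56.8%) of the others. The smallest member was 1502 bases wide and the smallest other peak 1504, so narrower peaks are not in the set. A wider peak also has more bases in which to meet an H3K27me3 peak, and the rule therefore favours narrow ones. When only peaks at or above the median width of all Ring1B peaks were kept, 20 members were left.

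The nearest H3K27me3 peak lay a median of 27232 bases away, with a range of 103 to 683110 bases. It lay within 1 kb for 9 members and within 5 kb for 35. The members nearest to H3K27me3, just inside the rule, were at Rab5c, 103 bases from H3K27me3, Cyld at 205, Snrnp25 at 469, Zfp444 at 595 and Mvb12a at 623. The peaks with the smallest overlap, which the rule left out, were at Sod1 with 100 shared bases, Ercc6 with 290, Rheb with 292, Nprl3 with 316 and Smad3 with 762. In the authors' deposited table, 19 of 174 genes at member peaks are called PRC2 targets (10.9%), while 274 of 274 genes at Ring1B peaks with H3K27me3 are. Over all 14833 genes given there, 4777 are (32.2%). The peaks of the 19 member genes called targets lay 103 to 4460 bases from H3K27me3, with a median of 1843. Those of the 155 genes called no target had a median of 34580. The call thus went with nearness to H3K27me3, which the rule used, so these shares are a description and no separate evidence.

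**Figure D1:**
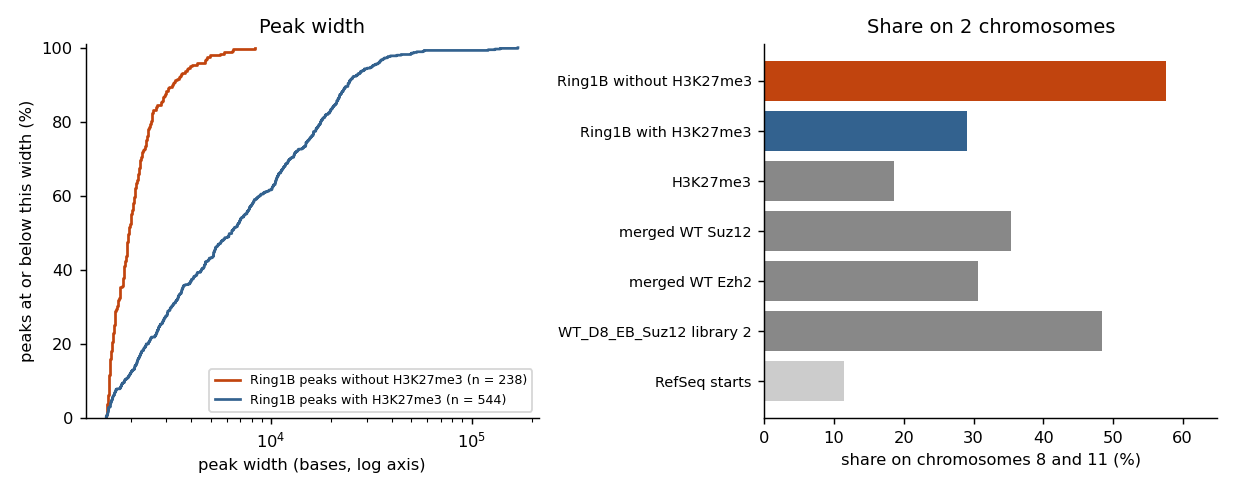
Left, the share of peaks (y axis, per cent) at or below each width (x axis, bases, log axis) for the 238 Ring1B peaks without and the 544 with H3K27me3. Right, the share of each peak list that lies on chromosomes 8 and 11: 57.6% of the members, 29.0% of the other Ring1B peaks and 11.4% of RefSeq starts.

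Most members sat at transcription starts, as the other Ring1B peaks did. Of the 235 members on chromosomes whose starts were used, 168 contained a start (71.5%) and 175 lay within 1 kb of one (74.5%), against 70.8% of the Ring1B peaks with H3K27me3. A further 46 (19.6%) lay in a gene with no start nearby and 14 (5.96%) between genes. The 175 peaks were tied to 215 genes, 176 protein-coding and 39 lncRNA, and none of these genes was also tied to a Ring1B peak with H3K27me3. Tied to more than 1 gene were 37 members, such as the peak between Stag3 and Gpc2 and that between Hsf2bp and Rrp1b, so the gene a peak belongs to cannot be told for these.

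The 2 widest members lay at circadian genes. The widest, chr11:98769304-98777591, covered the start of Nr1d1, which encodes the clock repressor REV-ERBα, and was 8288 bases wide. The next, chr11:69094060-69100534, covered the start of Per1 and was 6475 bases wide. Next in width was chr8:70606437-70612829 at Ssbp4, a gene for a DNA-binding protein, with 6393 bases. The others among the 10 widest were at 2410080I02Rik, Arrdc2, 4833417C18Rik with Gm38959, Gm34529 and Mnt, and 2 were inside genes with no start within 1 kb.

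Members were unevenly spread over the genome. Chromosome 11 held 95 and chromosome 8 held 42, together 57.6% of the members, against 29.0% of the Ring1B peaks with H3K27me3, 18.6% of the 11884 H3K27me3 peaks and 11.4% of RefSeq starts. In the 9 Suz12 lists of single libraries the share ran from 22.1% to 48.4%. The median width of members was 1994 bases on chromosomes 8 and 11 and 1936 bases elsewhere. CACGTG was found in 16.3% of the 147 starts at members on chromosomes 8 and 11, where 8.15% of all starts hold it, and in 25.5% of the 102 starts at members elsewhere, where 7.02% do. Because so many members share 2 chromosomes, some of the results that follow are also given by chromosome. Results that are not split may differ by chromosome too.

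Few members met a PRC2 subunit peak in the merged sets. The merged wild-type Suz12 set overlapped 9 members (3.78%) and the merged Ezh2 set 5 (2.10%), against 302 (55.5%) and 226 (41.5%) of the Ring1B peaks with H3K27me3. Of all RefSeq starts, 1.74% and 1.23% overlapped these sets. Among single libraries, wild-type ES cell and day 4 Suz12 lists overlapped 1 member each, those of EZH2-mutant ES cells 8 and 1, and those of the mutant at day 4 14 and 15. The counts were larger in the day 8 lists of library 2, and not only for members. Of the 544 Ring1B peaks with H3K27me3, the wild-type lists overlapped 102 in ES cells and 25 at day 4. For mutant library 2 these were 111, 96 and, at day 8, 388. The wild-type lists hold 8493 peaks in ES cells, 1000 at day 4 and 6511 at day 8. The part of list size in these counts was not tested. The wild-type day 8 Suz12 list overlapped 75 members (31.5%), against 427 of the others (78.5%) and 6.02% of all starts. In the EZH2 mutant at day 8, library 2 overlapped 51 members (21.4%) and library 1 only 6 (2.52%), so the 2 libraries of 1 group differed. The members found in wild-type day 8 and in mutant day 8 library 2 were the same in 31 cases, which is 41.3% of the first list and 60.8% of the second.

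The day 8 overlap was uneven over the chromosomes. On chromosomes 8 and 11 the wild-type day 8 Suz12 list overlapped 62 of 137 members (45.3%), and on all other chromosomes 13 of them (12.9%). Ring1B peaks with H3K27me3 did not show that split: 79.1% of them overlapped on chromosomes 8 and 11 and 78.2% elsewhere. All 9 members in the merged Suz12 set were on chromosomes 8 and 11. The part of the chromosomes in these overlaps was not tested. In all, 127 members met no Suz12 or Ezh2 list and 111 (46.6%) met at least 1 of the 11 lists. Of the Ring1B peaks with H3K27me3 471 did (86.6%), and of all RefSeq starts 7.85%. A start is a single base and a peak at least 1502 bases, so the share of starts is a low baseline for peaks, here and for each list above. The wild-type single-library lists have a smallest width of 1001 bases and the mutant ones of 501 or 487, so counts from the 2 genotypes were made under unlike settings and are not compared.

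**Figure D2:**
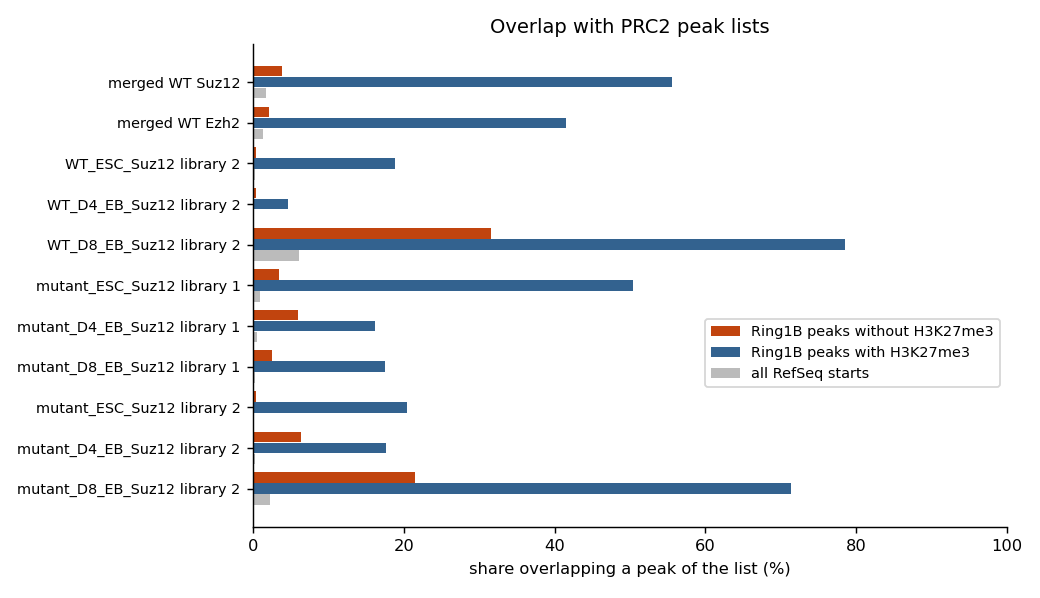
Share (x axis, per cent) of the 238 Ring1B peaks without H3K27me3, of the 544 with it and of all RefSeq starts that share at least 1 base with a peak of each of 11 Suz12 or Ezh2 lists (y axis). The day 8 lists of library 2 have the highest shares in both Ring1B sets. For the members these are 31.5% in wild type and 21.4% in the mutant.

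Genes at the members were expressed at every stage. RPKM, reads per kilobase of gene scaled to library size, were given for 176 of the 215 genes, among them 169 protein-coding and 7 lncRNA genes, and all 176 passed the filter of 0.5 RPKM in the 2 tables of ES cells and embryoid bodies. In the wild-type and mutant libraries the median RPKM of the 176 genes lay between 12.3 and 15.0, that of the 273 genes at Ring1B peaks with H3K27me3 between 0.510 and 2.63, and that of all genes between 6.13 and 7.13. The order was the same in all 18 libraries, and also in the 12 DMSO and GSK343 libraries, where the medians of the member genes were 14.2 to 18.1 and those of all genes 6.64 to 8.19. At least 95.5% of the member genes reached 1 RPKM in each of the 30 libraries. In wild-type ES cells the median RPKM was 18.3 over the 105 member genes on chromosomes 8 and 11. It was 10.6 over the 71 elsewhere, and this difference was not tested. In the 11 replated libraries, which were normalized apart, the median of the member genes was 5.34 to 11.7 and that of all genes 3.09 to 6.10.

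**Figure D3:**
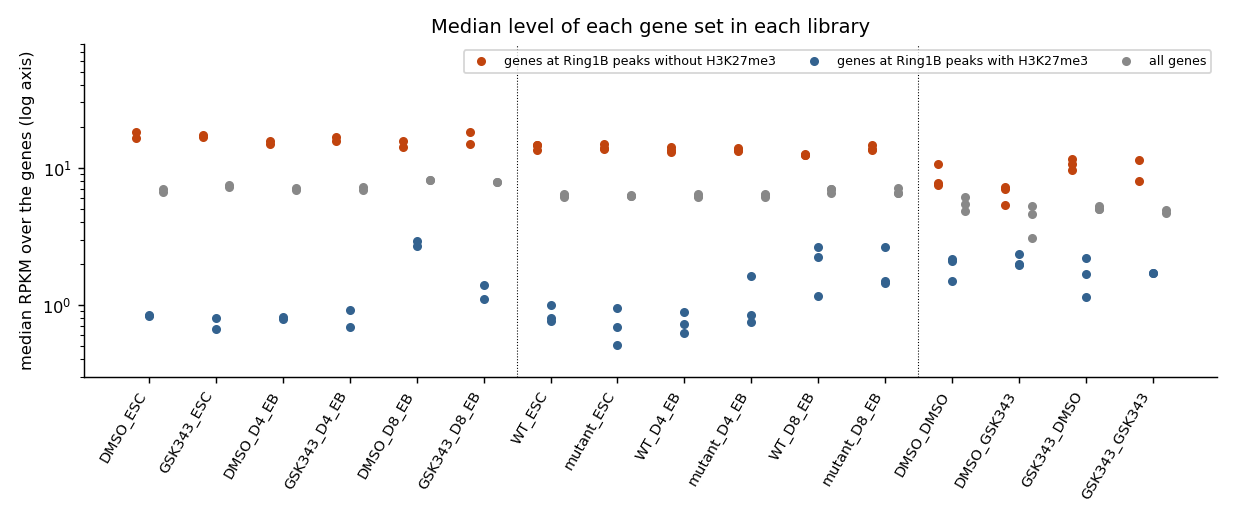
Median RPKM (y axis, log axis) over the genes at Ring1B peaks without H3K27me3, those at Ring1B peaks with H3K27me3 and all genes, 1 point for each library, by group (x axis). Dotted lines part the 3 tables, which were normalized apart, and the members' medians lie above the other 2 sets in each library.

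The 10 most abundant of these genes in wild-type ES cells were led by Eif5a, Cct3 and P4hb. Eif5a, a translation factor, had 404, 333 and 492 RPKM. Cct3, a chaperonin subunit, had 359, 287 and 409 RPKM, and P4hb, a protein disulfide isomerase, 342, 259 and 355 RPKM. Next came Canx (calnexin), Vdac1 (a channel of the outer mitochondrial membrane), Atox1 (a copper chaperone), Shmt1 (a folate-cycle enzyme), Srsf1 (a splicing factor), Gcsh (glycine cleavage) and Tbrg1, all of whose wild-type ES cell libraries were at 64.3 RPKM or more. Of the circadian genes at the widest peaks, Nr1d1 had 2.48, 3.29 and 2.37 RPKM in wild-type ES cells, below the median of all genes in each library (6.14, 6.31 and 6.42). Per1 had 9.81, 12.4 and 3.42, above that median in libraries 1 and 2 and below it in library 3.

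Members were tied to 0.793% of all 26994 genes with a start. Of 36 germline genes known as PRC1.6 targets, 3 were tied to members (8.33%: Hsf2bp, Stag3 and Zcwpw1), and of 34 PRC1 subunit genes, 2 (5.88%: Mga and Phc1). Ring1B peaks with H3K27me3, tied to 554 genes, had 1 of these germline genes and also 2 of the PRC1 subunit genes. The lists were chosen with earlier results known, and these shares were not tested. None of 12 PRC2 subunit genes, 25 pluripotency genes or 42 developmental regulators repressed by Polycomb was tied to a member, while 21 of those 42 regulators were tied to a Ring1B peak with H3K27me3.

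Before the comparisons, the targeted gene and the markers were checked. Ezh2 RNA was 47.6, 62.5 and 37.2 RPKM in wild-type ES cells and 23.6, 20.7 and 24.4 in mutant ES cells, and at day 8 it was 42.8, 41.4 and 45.8 against 18.3, 22.2 and 26. It fell in mutant ES cells by 1.04 on the log2 scale (SE 0.17, limma adjusted p = 0.0372), a call lost in all but 1 of the 6 fits without 1 library, the exception being that without wild-type library 3. By day 8 it was lower by a log2 fold change of −0.95 (SE 0.17, adjusted p = 0.0185), lost without wild-type library 1 or 2 or mutant library 2 (up to 0.167). At day 4 it was 41.0, 41.6 and 48.3 against 25.2, 22.0 and 26.5, with an adjusted p of 0.168. Rnf2, which encodes Ring1B, had 21.7, 21.7 and 39.8 RPKM in wild-type ES cells and was not called in any comparison. The 4 ES cell markers, none at 0, summed to 748 to 844 RPKM in wild-type ES cells and to 42.3 to 397 at day 8. Library 3 of wild-type day 8 stood apart, with Pou5f1, a pluripotency factor, at 222 RPKM against 27.8 and 28.7. Among replated DMSO_DMSO libraries, library 1 stood apart with Pou5f1 at 104 RPKM against 0.997 and 4.67. The 12 feeder and mesenchyme markers summed to 336 to 1218 RPKM in wild-type ES cells and 113 to 128 at wild-type day 4. They summed to 300 to 634 in mutant ES cells, 329 to 371 in DMSO ES cells and 447 to 679 in GSK343 ES cells. The part of feeder cells in the comparisons with ES cells was not tested. Recovered depth in M (mega) reads was 5.01 to 22.0 in the DMSO and GSK343 libraries, 7.17 to 28.5 in the wild-type and mutant libraries and 2.27 to 8.34 in the replated ones.

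From ES cells to day 4 in wild type, 9 of the 176 genes changed (5.11%), 1 upward and 8 downward, where 8.67% of all 14180 genes tested were called, 4.29% upward and 4.39% downward. A gene is called here at a limma adjusted p threshold of 0.05 across all genes, and log2 fold changes are on the log2(RPKM + 1) scale. Bend3, a repressor that binds unmethylated CpG, rose from 11.2, 5.28 and 9.95 RPKM to 41.1, 40.3 and 16.8 (log2 fold change 1.73, SE 0.40, adjusted p = 0.0142). All 3 day 4 libraries were above all ES cell libraries. Ankrd37, an ankyrin repeat gene known to respond to hypoxia, fell from 20.3, 23.6 and 8.32 RPKM to 2.06, 2.58 and 5.33 (−2.05, SE 0.34, 0.00236). Pim3, a kinase gene, fell from 95.6, 77.3 and 40.5 to 13.7, 14.1 and 22.9 RPKM (−1.96, SE 0.26, 0.000648). Mir22hg, the host transcript of miR-22, Ssbp4 and Rbl2, which encodes the cell cycle repressor p130, fell by 1.81, 1.54 and 1.0. The replicate numbers paired these libraries, and with the replicate number as a block 22 genes were called, 9 higher and 13 lower, beside 16.1% of all genes. Without wild-type ES cell library 3 or day 4 library 3 the count was 16, and without ES cell library 2, day 4 library 1 or day 4 library 2 it was 4, with Bend3 and Rbl2 lost in each of these last fits (adjusted p up to 0.0837 for Bend3 and 0.105 for Rbl2 over all alternatives).

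From day 4 to day 8 in wild type, 42 of the 176 genes changed (23.9%), 14 upward and 28 downward, where 20.7% of all genes were called, 10.6% upward and 10.2% downward. The largest rise was that of Pik3ip1, an inhibitor of PI3 kinase signalling. It went from 3.70, 4.03 and 3.0 RPKM to 43.0, 39.7 and 38.9 (log2 fold change 3.19, SE 0.30, adjusted p = 2.79e-05), an 11.3-fold difference of the means with no overlap. Ankrd37 and Pim3, which had fallen by day 4, rose again, by 2.51 (SE 0.34) and 1.44 (SE 0.26). Cd47, a surface protein that inhibits phagocytosis, rose by 1.68 (SE 0.32) and Gpc2, a glypican, by 1.08 (SE 0.31). Bend3 fell back from 41.1, 40.3 and 16.8 RPKM to 3.20, 3.82 and 9.62 (−2.39, SE 0.40, 0.00188). Phc1, a subunit of canonical PRC1, fell from 145, 104 and 89.0 RPKM to 21.4, 17.9 and 48.8 (−2.01, SE 0.42, 0.00564). Irf1, an interferon-response transcription factor, Shmt1 and Mtfp1, a gene of mitochondrial fission, fell by 1.76, 1.6 and 1.55. In Phc1 and Irf1 the highest day 8 value was that of library 3, the library with high Pou5f1, and the part of its make-up in the result was not tested. The replicate numbers paired these libraries too. With the replicate number as a block, 62 member genes were called, 21 higher and 41 lower, beside 34.6% of all genes. Without the block, the count was 22 without day 8 library 1 and 25 without day 8 library 2, and 53 without day 8 library 3. Irf1 was lost in 5 of the 6 fits that each left out 1 library, all except that without day 8 library 3, and Gpc2 was lost without day 4 library 1 or 3 or day 8 library 1 or 2 (adjusted p up to 0.131 and 0.135). In bulk libraries, fewer cells of a type and less RNA per cell cannot be told apart.

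In EZH2-mutant against wild-type ES cells, none of the 176 genes was called by limma, where 0.0917% of all genes were (13 genes, 0.0635% higher and 0.0282% lower). At day 4 none was called either, beside 0.0494% of all genes (7 genes, 0.0282% higher and 0.0212% lower). At an unadjusted p of 0.05, 10 and 7 member genes passed, and voom on recovered reads called 0 in both. The median log2 fold change of the member genes was 0.07 and 0.01, and that of all genes 0.00 and −0.01.

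At day 8, 2 of 176 genes rose in the mutant (1.14%) and none fell, where 1.51% of all genes were called, 1.3% upward and 0.212% downward. They were Hsf2bp and D230025D16Rik. Hsf2bp had 0.224, 0.460 and 5.11 RPKM in wild type and 8.10, 22.2 and 17.8 in the mutant (1.93 ± 2.75 against 16.1 ± 7.24, SD, n = 3 each), with no overlap (log2 fold change 2.84, SE 0.65, adjusted p = 0.0448). D230025D16Rik, a gene with no assigned name, had 13.3, 12.7 and 18.3 RPKM in wild type and 25.5, 26.1 and 28.1 in the mutant (0.82, SE 0.19, 0.0471). Both calls were lost without wild-type library 1 or 2 or mutant library 2 or 3 (adjusted p up to 0.242 for Hsf2bp and 0.235 for D230025D16Rik over all alternatives), and the voom fit called neither. Without wild-type library 3, 12 member genes were called, 10 higher and 2 lower, beside 9.22% of all genes. These included Hsf2bp, Irf1, Psmb10, Ssbp4, Ciart and Urb2 upward and Gpc2 and Pard6b downward. Without mutant library 1 the count was 5. The 4 ES cell markers summed to 220 to 672 RPKM in the mutant at day 8, against 42.3 to 397 in wild type, and their part in the result was not tested.

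Hsf2bp was also higher at the other stages without passing the test. In ES cells it had 11.9, 14.2 and 12.9 RPKM in wild type and 33.1, 32.7 and 40.6 in the mutant, with no overlap (log2 fold change 1.38, SE 0.65, adjusted p = 0.827). The day 4 values were 1.07, 1.12 and 9.80 against 5.52, 14.2 and 19.4, and the groups overlapped (1.81, SE 0.65, 0.727). Same-numbered libraries were paired at this stage, and Hsf2bp was higher in the mutant in 3 of 3 pairs. With the replicate block the adjusted p was 0.245 (SE 0.48), and 0 member genes were called. The mutant effect did not differ detectably between day 8 and ES cells (difference 1.46, SE 0.92, adjusted p = 0.951).

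GSK343 left the member genes without a call in ES cells, as it did all genes: 0 of 176 and 0 of 14016 (0.0%) were called by limma and by voom, and 1 member passed an unadjusted p of 0.05. At day 4, 1 of 176 rose (0.568%), beside 0.628% of all genes, 0.499% upward and 0.128% downward. It was Hsf2bp, with 2.65 and 2.51 RPKM under DMSO and 11.7 and 13.8 under GSK343 (log2 fold change 1.94, SE 0.33, adjusted p = 0.0315). That call was lost without any 1 of the 4 libraries and by voom (adjusted p up to 0.318).

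At day 8, 44 of 176 member genes changed under GSK343 (25%), 35 upward and 9 downward, where 31.6% of all genes were called, 15.6% upward and 16.0% downward. Among the 255 genes tested at Ring1B peaks with H3K27me3, 39 rose and 110 fell. In all 44 called member genes the 2 GSK343 and 2 DMSO libraries did not overlap. With 2 libraries a side a called gene is nearly bound to show that. The count was not taken over all called genes, so it says nothing particular about the members. The median log2 fold change was 0.09 over the member genes, −0.44 over the genes at Ring1B peaks with H3K27me3 and 0.00 over all genes. The count was 22 without DMSO library 1 and 23 without DMSO library 2. On chromosomes 8 and 11, 26 of 105 member genes were called (24.8%), and on other chromosomes 18 of 71 (25.4%). With the replicate number as a block, 67 member genes were called, 48 higher and 19 lower, beside 42.8% of all genes.

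Hsf2bp gave the largest rise. It had 0.849 and 0.855 RPKM under DMSO and 13.6 and 32.5 under GSK343, a 27-fold difference of the means (log2 fold change 3.58, SE 0.33, adjusted p = 3.21e-05). Phc1 rose from 15.5 and 13.2 to 76.2 and 56.9 RPKM (2.13, SE 0.17, 1.27e-05), a level under GSK343 close to that of DMSO embryoid bodies at day 4, 70.7 and 66.9. Irf1 rose from 17.8 and 10.2 to 49.2 and 50.03 RPKM (1.80, SE 0.26, 0.000618). Chd9, a chromatin remodeller, and Psmb10, a subunit of the immunoproteasome, rose by 1.79 (SE 0.29) and 1.40 (SE 0.28). These 5 calls held in every fit that left out 1 library.

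The largest falls were those of Gpc2, Pik3ip1, Cd47, Per1 and Narf. Gpc2 fell from 15.7 and 15.0 to 4.96 and 5.49 RPKM (−1.40, SE 0.23, adjusted p = 0.00130). Pik3ip1 fell from 51.8 and 62.3 to 11.7 and 38.1 RPKM (−1.38, SE 0.41, 0.0284), and the 2 GSK343 libraries differed more from each other than the 2 DMSO libraries did. Cd47 and Narf fell by 1.01 and 0.83. Per1 fell from 14.8 and 13.3 to 5.93 and 8.95 RPKM (−0.86, SE 0.27, 0.0370). The calls of Per1 and Pik3ip1 were lost without DMSO library 1 or 2 or GSK343 library 1 (adjusted p up to 0.192 and 0.143 over all alternatives).

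**Figure D4:**
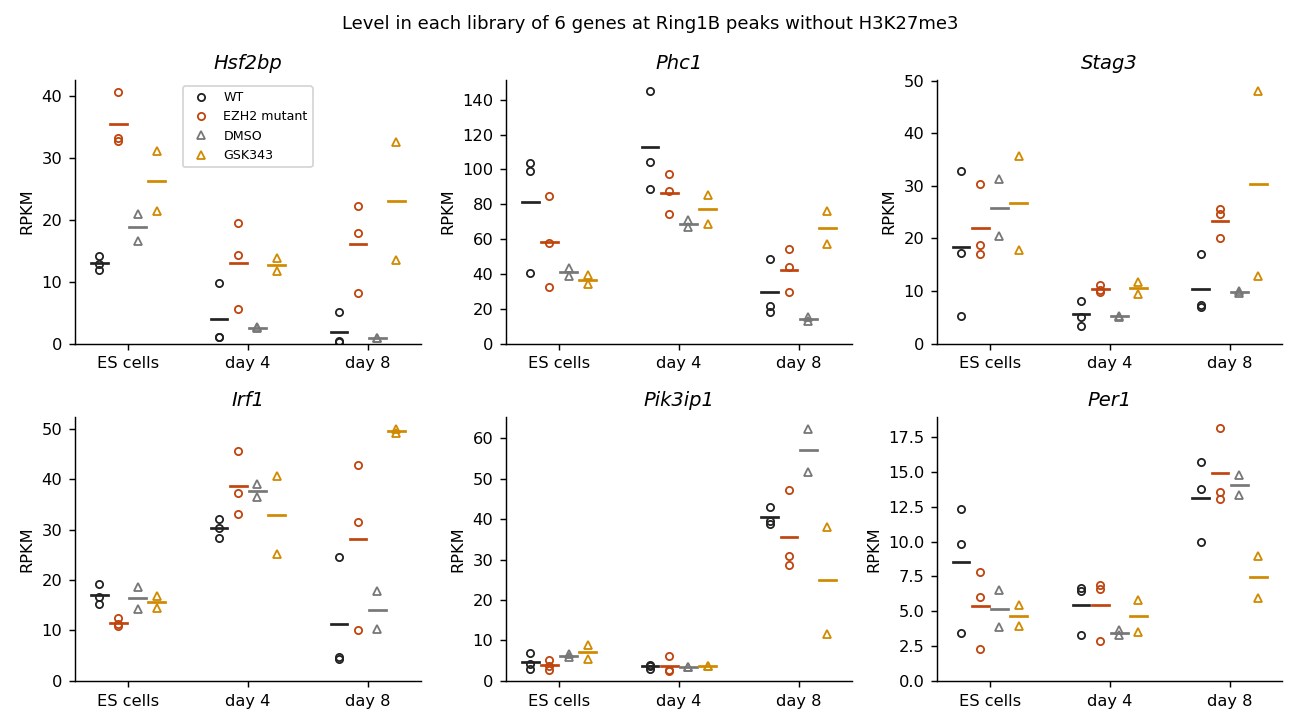
RPKM (y axis) of 6 genes at Ring1B peaks without H3K27me3 in each library (open symbols) with the group mean (bar), by stage (x axis), for wild-type and EZH2-mutant cultures (circles, n = 3) and DMSO and GSK343 cultures (triangles, n = 2). Hsf2bp at day 8 is at 0.224 to 5.11 in wild type and DMSO and at 8.10 to 32.5 in mutant and GSK343 libraries.

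Hsf2bp was 1 of 2 germline genes at members that rose at day 8. The other, Zcwpw1, a reader of meiotic histone methylation, went from 4.59 and 6.78 to 8.51 and 17.2 RPKM (1.0, SE 0.29, adjusted p = 0.0235), a call lost without DMSO library 1 or GSK343 library 2 (up to 0.159). Stag3 had 9.56 and 9.98 RPKM under DMSO and 12.8 and 47.9 under GSK343, which did not pass (1.27, SE 0.50, 0.0768). In the mutant at day 8 Stag3 had 20.0, 24.6 and 25.5 RPKM against 7.25, 7.03 and 17.0, with no overlap and an adjusted p of 0.247. Across the whole germline list, 25 of 29 genes tested rose under GSK343 at day 8 and none fell, with a median of 1.84, so rises were also called at germline genes that are no members. All 5 germ cell markers are on the germline list. None at 0, they summed to 5.51 to 5.96 RPKM under DMSO and 31.8 to 54.3 under GSK343. Their sum is therefore part of the same result and no separate evidence, and the part of germ cells in these results was not tested. In the mutant at day 8, 3 of the 29 rose (Hsf2bp, Stra8 and Tuba3a). Of 34 PRC1 subunit genes, 7 rose and 7 fell under GSK343 at day 8. Both subunit genes at members were among the rises, Phc1 and Mga, the latter from 28.5 and 23.4 to 39.6 and 40.1 RPKM (0.61, SE 0.18, 0.0276), a call lost without DMSO library 2, GSK343 library 1 or GSK343 library 2 (up to 0.180).

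Many of the genes that changed under GSK343 at day 8 had changed the other way between day 4 and day 8 in wild type, 2 comparisons that share no library. Of the 35 that rose, 19 had fallen in wild type, which is 54.3% of the rises and 67.9% of the 28 falls. They include Phc1, Irf1, Bend3, Chd9, Shmt1, Mtfp1, Ciart, Tk1 and Urb2. Of the 9 that fell, 6 had risen (Arf2, Cd47, Gpc2, Narf, Pard6b and Pik3ip1). No member gene was called in the same direction in both. Over all genes such calls were rare too, with 5 genes higher in both and 2 lower in both. These are 0.231% of all GSK343 rises and 0.0912% of all GSK343 falls. In opposite directions the overlaps over all genes were 722 genes, 33.3% of the rises and 50.3% of the falls, and 836 genes, 38.1% and 57.3%. The called pluripotency genes, none of them at a member, mostly moved with these. Under GSK343 at day 8, 23 of 25 rose, with a median over the list of 3.20. From day 4 to day 8 in wild type 9 fell, 1 rose and the rest were not called. The 4 ES cell markers summed to 88.9 to 94.0 RPKM under DMSO at day 8 and to 721 to 971 under GSK343, and the 12 feeder and mesenchyme markers to 869 to 1016 and 283 to 348. The 8 endoderm markers summed to 127 to 165 under DMSO and 3.57 to 19.2 under GSK343. Of 12 PRC2 subunit genes 4 rose and 2 fell, and of 30 developmental regulators tested 10 rose and 12 fell. Their part in the result was not tested.

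**Figure D5:**
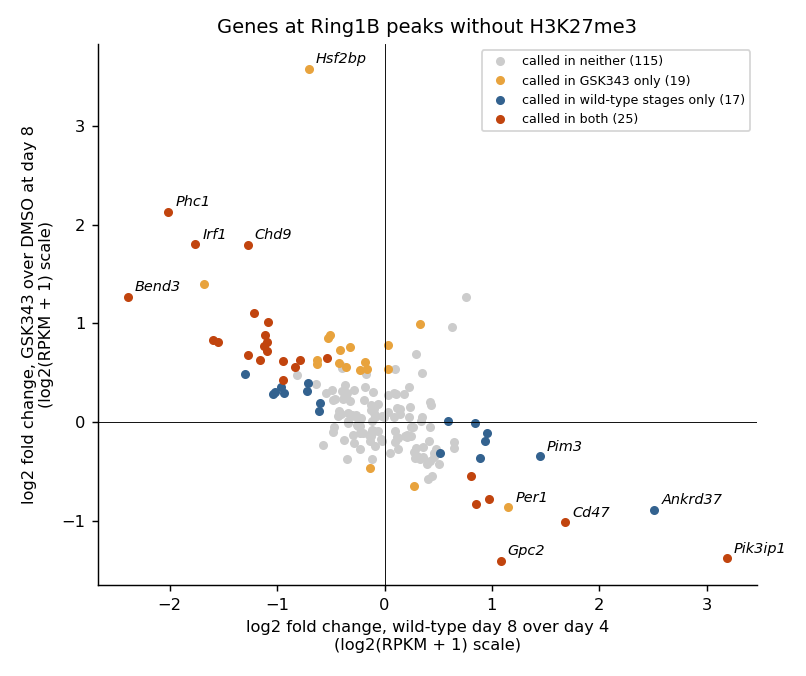
Log2 fold change of each of the 176 genes in wild type from day 4 to day 8 (x axis) and for GSK343 over DMSO at day 8 (y axis), both on the log2(RPKM + 1) scale and coloured by call. All 25 genes called in both lie in the quadrants where the 2 changes have opposite signs, and Hsf2bp has the highest GSK343 value at 3.58.

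Counts of changed genes were also set out by what else a peak or promoter held. Of the 62 genes whose peak met the wild-type day 8 Suz12 list, 11 changed under GSK343 at day 8 (17.7%), 7 upward and 4 downward, and of the 114 others 33 (28.9%), 28 upward and 5 downward. Of the 39 genes with CACGTG in a promoter 12 changed (30.8%), and of the 137 without it 32 (23.4%). Of the 25 genes with an H3K27me3 peak within 5 kb 3 changed (12.0%), and of the 151 others 41 (27.2%). These counts are side by side, and their differences were not tested.

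In replated cultures none of 174 member genes was called by limma, where 0.0% of all 14367 genes were, both for DMSO_GSK343 and for GSK343_DMSO against DMSO_DMSO, which serves as control in both. At an unadjusted p of 0.05, 4 and 50 member genes passed, and voom called 0 in both. The median log2 fold change of the member genes was −0.30 in the first and 0.24 in the second, and that of all genes −0.23 and −0.09. In the second, the median over all genes of chromosome 8 was 0.22 and that of chromosome 11 was 0.17, outside the range of −0.29 to 0.08 over the other 17 chromosomes, and these 2 chromosomes hold 103 of the 174 genes. Without DMSO_DMSO library 1, 14 member genes were called in GSK343_DMSO, all higher, beside 4.14% of all genes. They included Phc1, Hsf2bp, Shmt1, Mtfp1 and Tk1. Phc1 had 39.4, 7.66 and 5.88 RPKM in DMSO_DMSO, 6.18, 8.04 and 4.35 in DMSO_GSK343, 89.3, 185 and 61.5 in GSK343_DMSO and 24.2 and 159 in GSK343_GSK343. All GSK343_DMSO libraries lay above all DMSO_DMSO libraries. Nr1d1, at the widest member, had 22.5, 39.3 and 37.6 RPKM in DMSO_DMSO and 6.31, 9.18 and 20.48 in GSK343_DMSO, also without overlap (adjusted p = 0.169). The 4 ES cell markers summed to 6.05 to 294 RPKM in DMSO_DMSO and 407 to 694 in GSK343_DMSO, and their part in these values was not tested.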

How the data were processed

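Ring1B, H3K27me3, Suz12 and Ezh2 peaks are the authors' deposited coordinates on mm10. The submitters' processing notes name Bowtie2 2.3.4.3 and HOMER 4.10.3 for CUT&RUN, and STAR 2.5.3, featureCounts 1.6.1 and edgeR for RNA-seq, with no role given. Expression values are RPKM, deposited by the authors in 3 tables. Reads were recovered from the steps between low values, and 100% came out whole within 0.02. The wild-type and mutant table carries a further scaling per library.

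Starts came from RefSeq promoters (GRCm38.p6) and were tied to peaks within 1 kb. Chromosomes whose starts were not used hold 3 members. Log2(RPKM + 1), with genes at 0.5 RPKM or more in as many libraries as the smallest group, was fitted per table with limma 3.58.1 in R 4.3.3, adjusted over all genes. The rule for named genes was, per comparison, the 5 largest rises and 5 largest falls without overlap and with at least 1 RPKM in the higher group, the 10 highest genes in wild-type ES cells, those at the 10 widest members, list members, Ezh2 and Rnf2. Pou5f1, Ciart, Mcoln1, Cln3 and other genes named outside it were chosen after their values were seen. Members and lists were chosen with earlier results of these data known. Same-numbered libraries correlated above 0.1 in all pairs for mutant against wild type at day 4 (lowest 0.290). They also did for wild-type day 4 against ES cells (lowest 0.151) and day 8 against day 4 (lowest 0.222). For GSK343 against DMSO they correlated at 0.666 in ES cells, 0.625 at day 4 and 0.424 at day 8. With 2 libraries per group, both pairs of a stage necessarily give the same value. The limma step was tested on simulated data. Alternatives are in the closing section. The number of other per-sample columns not used was 0.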

Additional observations from a re-analysis of the deposited data

Results flagged for a closer look

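The effect of GSK343 on some genes at Ring1B peaks without H3K27me3 differed between stages by an interaction contrast in limma. Of the 176 genes, 22 had a different effect at day 8 than in ES cells (12.5%, beside 19.9% of all genes) and 10 a different effect at day 8 than at day 4 (5.68%, beside 12.2% of all genes). Against ES cells the difference was 3.13 for Hsf2bp (SE 0.46, adjusted p = 0.00138), 2.29 for Phc1, 1.86 for Irf1, 1.6 for Chd9 and 1.54 for Psmb10, each more positive at day 8. It was −1.31 for Gpc2, −1.18 for Cd47 and −0.93 for Narf, each more negative at day 8. Against day 4 the difference was 1.64 for Hsf2bp (SE 0.46, adjusted p = 0.0451), 1.97 for Phc1, 2.03 for Irf1 and 1.55 for Chd9, and −1.40 for Gpc2, −0.97 for Cd47 and −0.87 for Narf. The 2 sets of differences share the day 8 libraries. For the mutant effect, 0 of the 176 genes differed between stages.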

How the results depend on the processing

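The number of Ring1B peaks without H3K27me3 was 229 or 203 when no H3K27me3 peak within 1 kb or 5 kb was allowed, and 20 when peaks at or above the median width were kept. The share meeting a Suz12 or Ezh2 list was 53.8% within 1 kb and 22.7% where at least 50% of the peak had to be covered, against 46.6%. With the replicate block, the counts of member genes called were 7 for the mutant at day 8 (2 without), 67 for GSK343 at day 8 (44 without) and 22 for wild-type day 4 against ES cells (9 without), and 62 (42 without) for wild-type day 8 against day 4. Under the block, 38.1% of member genes and 42.8% of all genes were called for GSK343 at day 8. For wild-type day 4 against ES cells the shares were 12.5% and 16.1%. For wild-type day 8 against day 4 they were 35.2% and 34.6%. The members' share thus lay below that of all genes for GSK343 and wild-type day 4, and close to it for wild-type day 8. Every one of the 42 named calls was kept under the block. Same-numbered libraries were not paired for the mutant at day 8 (lowest correlation −0.26), and GSK343 has only 2 pairs per stage. With only the 2 groups of a comparison fitted, the counts were 0, 21, 1 and 23 for these 4 comparisons and 8 for GSK343_DMSO. Voom called 0 for the mutant at day 8 and 0 for GSK343 at day 4. A pseudocount of 0.1 gave 4 for the mutant at day 8. Tying starts within 5 kb gave 2 for GSK343 at day 4. Leaving out 1 library at a time gave 0 to 12 for the mutant at day 8, 0 for GSK343 at day 4, 22 to 41 for GSK343 at day 8, 4 to 16 for wild-type day 4, 22 to 53 for wild-type day 8 and 0 to 14 for GSK343_DMSO. The cause was not tested, beyond the fewer libraries. Of the 42 named calls, 42 were kept with the other pseudocount and with no filter, 38 with voom and 25 with 2 groups, 24 in every fit without 1 library, and none changed sign. Peaks at most 1500 bases wide are not in the merged sets, and peak heights are not given, so occupancy at the members could not be ranked.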
